A study of Sus scrofa with 21 samples.

Results

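The genes examined here are the 3 inducible catalytic subunits of the immunoproteasome (PSMB8, PSMB9 and PSMB10), both subunits of the proteasome activator PA28 (PSME1 and PSME2) and the peptide transporter subunit TAP1. Members were taken as all probes whose RefSeq accession belongs to one of these 6 pig genes, which gave 13 of the 43603 probes on the array, and 6 of the 2389 genes that could be named. PSMB8 and PSMB10 had 3 probes each, PSMB9, PSME1 and TAP1 had 2 each, and PSME2 had 1. All 13 probes were well above background on all 21 arrays, so the filter on dim probes removed none of them. The tissue was the endometrium, the inner lining of the uterus, of Large White sows, and RNA was measured on 1-colour Agilent arrays. Pregnant sows had been inseminated and were killed on day 13, 18 or 24, 3 sows a day, and endometrium was taken where a conceptus was attached (attachment site) and between such places (inter-site). Non-pregnant controls were 3 sows given inactivated sperm of the same boar and killed on day 13. This made 7 groups of 3 arrays. No non-pregnant sows were sampled on day 18 or 24, so a change between these days in pregnant sows has no control of the same day.

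The proteasome cuts cytosolic proteins into peptides. In cells exposed to interferon gamma, PSMB8, PSMB9 and PSMB10 replace the constitutive catalytic subunits PSMB5, PSMB6 and PSMB7 in newly made particles, and the ring formed by PSME1 and PSME2 opens the end of the particle. TAP1, together with TAP2, pumps the resulting peptides into the endoplasmic reticulum, where they are loaded onto MHC class I molecules (SLA class I in the pig) for display to CD8+ T cells. Around the time of attachment the pig conceptus secretes interferon gamma and interferon delta towards the endometrium. In the pig RefSeq gene order, TAP2, PSMB8, TAP1 and PSMB9 follow each other on one chromosome. PSME2 and PSME1 lie on either side of EMC9 on another stretch, with IRF9 next to PSME2, and PSMB10 lies between CTRL and LCAT.

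Levels are log2 processed signal minus the 75th percentile of the same array, so that 0 is the signal at that percentile. Each gene is given by its lead probe, that with the highest mean level in the 21 arrays. The probes of a gene followed each other closely, with Pearson's r over the 21 arrays of 0.950 for TAP1, 0.952 for PSME1 and at least 0.991 for the others. Levels of different probes are not set against each other, since probes differ in brightness for reasons other than RNA amount.

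On each array 62.3% to 77.1% of the probes exceeded background clearly, the signal at the 75th percentile ranged from 355.7 to 859, and no spot was saturated. Some libraries stood apart from their labels. Over the tested probes, the correlation of replicate 3 of the non-pregnant group with replicate 3 of the day 24 inter-sites was 0.988, against 0.942 to 0.947 with the other arrays of their own groups. DKK1, at 3.54 to 5.67 on the other 16 arrays of pregnant sows, was at -6.13 in that day 24 array and at -3.24 in replicate 1 of the day 13 inter-sites, beside -5.37 to -4.63 in the non-pregnant group. Among 123 probes that were on in some libraries and off in others, 3 of 11 sets of matching libraries held more than 1 array of the same group, so that independence of the arrays within a group rests on the labels. The p-values then measure the spread between these arrays. Sets also joined arrays of different days, such as replicate 1 of day 18 attachment with replicates 1 and 2 of day 24 attachment. A shared set therefore does not by itself mark a shared sow. In whole tissue, a change in the number of cells that hold an RNA and a change of its amount per cell cannot be told apart.

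**Figure D1:**
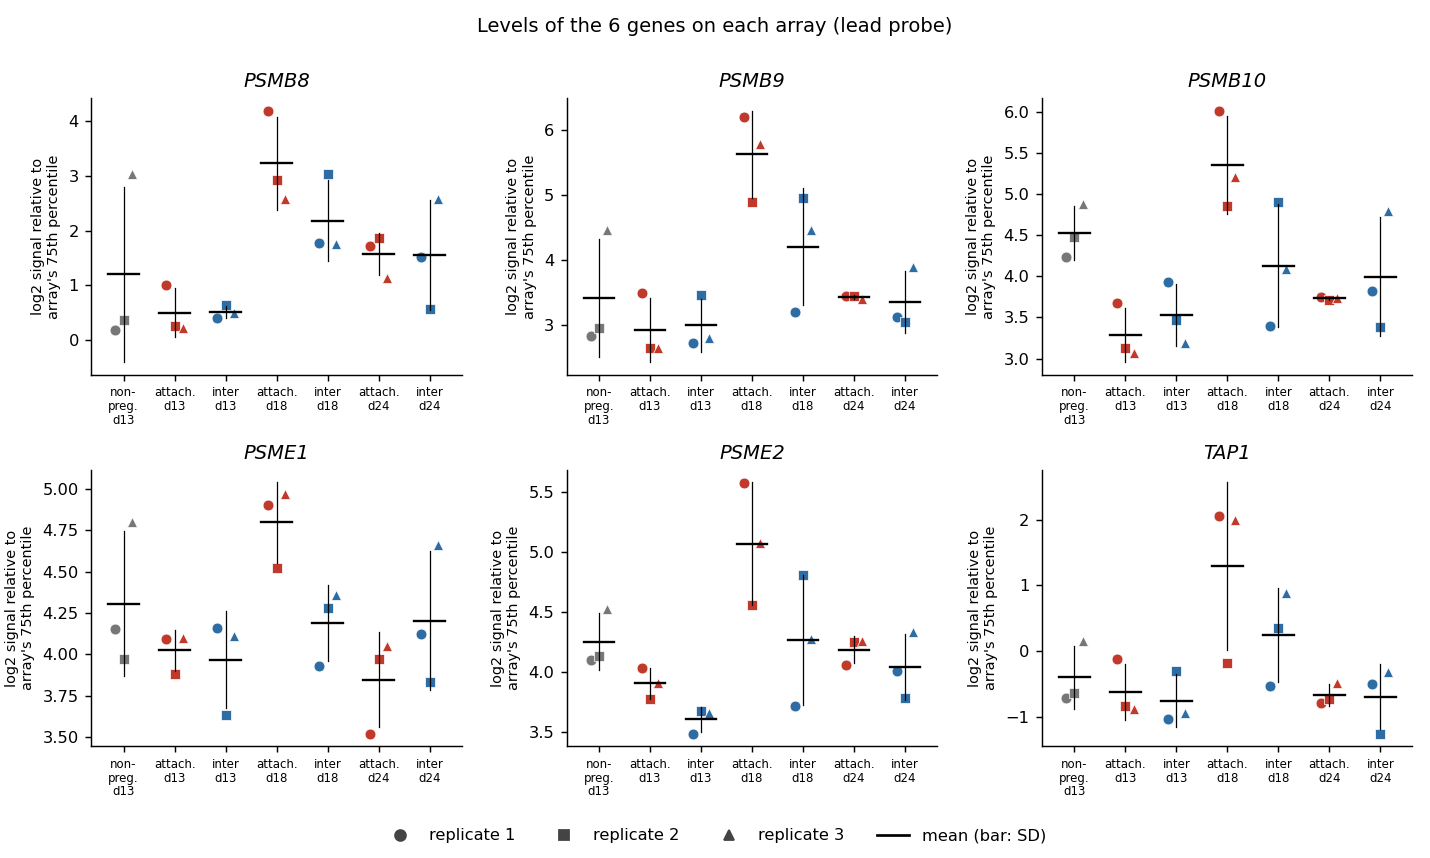
Level of each of the 6 genes (lead probe; log2 signal with the array's 75th percentile at 0) on each of the 21 arrays, by group; symbols are replicates, horizontal lines group means and vertical bars SD (n = 3), red for attachment sites, blue for inter-sites and grey for non-pregnant sows. The attachment sites of day 18 have the highest mean for all 6 genes, with means from 1.29 (TAP1) to 5.63 (PSMB9).

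At attachment sites, transcripts of the inducible catalytic subunits and of PSME2 rose between day 13 and day 18. The increases were 6.65-fold for PSMB8, 6.52-fold for PSMB9, 4.18-fold for PSMB10 and 2.24-fold for PSME2. PSME1 and TAP1 had estimates of 1.71-fold and 3.75-fold higher that did not pass the test in their lead probes. In all, 4 of the 6 genes and 10 of the 13 probes were called higher (limma, adjusted p under 0.05), where 0.990% of all tested probes were. The median log2 fold change was 1.98 over the 6 genes and 0.01 over all tested probes.

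PSMB8, which replaces the chymotrypsin-like subunit, was at 1.01, 0.26 and 0.21 on the 3 day 13 attachment arrays and at 4.19, 2.93 and 2.57 on those of day 18. All 3 day 18 values lay above all 3 of day 13. The log2 fold change was 2.73 with an SE of 0.66 (adjusted p = 0.045, limma), and the other PSMB8 probes gave 2.75 each. PSMB9, the inducible counterpart of PSMB6, was at 3.50, 2.64 and 2.64 on day 13 and at 6.21, 4.90 and 5.79 on day 18. The arrays did not overlap, and the log2 fold change was 2.71 with an SE of 0.48 (adjusted p = 0.0199). PSMB10, the inducible counterpart of PSMB7, went from 3.67, 3.13 and 3.07 to 6.01, 4.85 and 5.20. Its log2 fold change was 2.06 with an SE of 0.40 (adjusted p = 0.0237), again without overlap. The day 18 arrays differed among themselves more than those of day 13, with an SD of 0.85 against 0.45 for PSMB8 and 0.59 against 0.33 for PSMB10.

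The activator subunits had smaller estimates. PSME2 was at 4.04, 3.78 and 3.91 on day 13 and at 5.58, 4.56 and 5.08 on day 18, a log2 fold change of 1.16 with an SE of 0.27 (adjusted p = 0.0404). PSME1 was at 4.09, 3.88 and 4.10 on day 13 and at 4.90, 4.52 and 4.97 on day 18. These values did not overlap either, but the log2 fold change of 0.77 (SE 0.26, 95% interval 0.22 to 1.32) had an adjusted p of 0.109, and its other probe gave 0.63 with an adjusted p of 0.212.

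TAP1 was at -0.13, -0.84 and -0.89 on day 13 and at 2.06, -0.18 and 2.0 on day 18. The groups overlapped only because replicate 2 of day 18 lay just below replicate 1 of day 13. The lead probe's log2 fold change was 1.91 with an SE of 0.50 (adjusted p = 0.0592). The other TAP1 probe was at -2.70, -3.04 and -3.21 on day 13 and at 0.30, -1.82 and -0.41 on day 18, without overlap, and passed the test at 2.34 (SE 0.45, adjusted p = 0.0237). Between days 13 and 18, 5 of 6 lead probes and 12 of 13 probes had day 18 arrays all above those of day 13, where 10.9% of all probes did.

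The arrays were spread over 6 slides, and with slide as a block in the fit 0 of the 6 genes passed, at adjusted p of 0.0853 to 0.435. The share of all tested probes called in that fit is not given, so this count cannot be read as particular to the 6 genes. The one slide that held both groups, with 1 array of each, gave differences of 3.97 for PSMB8, 3.57 for PSMB9, 2.93 for PSMB10, 0.80 for PSME1, 1.67 for PSME2 and 2.94 for TAP1. These arrays were replicate 1 of day 18 and replicate 3 of day 13. By the mean of the 6 genes they ranked 1 and 20 of the 21 arrays, highest first, so this pair lies near the extremes of its groups. Leaving out replicate 2 or 3 of day 13 or replicate 1 of day 18, all attachment sites, also left 0 calls. Leaving out replicate 2 of the non-pregnant group, replicate 1 of day 13 attachment, replicate 2 of day 13 inter-sites or any day 24 attachment array left 2. The estimates stayed positive for all 6 genes in each of the 21 fits without 1 array. Over these fits, 9 to 3733 of all tested probes were called in either direction, against 540 with all arrays.

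By day 24 the levels at attachment sites were lower again. PSMB9 fell 4.59-fold, TAP1 3.90-fold, PSMB10 3.09-fold and PSME1 1.93-fold between day 18 and day 24, while the lower estimates for PSMB8 (3.15-fold) and PSME2 (1.85-fold) did not pass the test. Called lower were 4 of 6 genes and 8 of 13 probes, against 1.75% of all tested probes. The median log2 fold change was -1.65 over the 6 genes and 0 over all tested probes. This comparison and the one before it share the day 18 attachment arrays, so they are not independent of each other. PSMB9 and PSMB10 were called in each.

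PSMB9 was at 3.45, 3.45 and 3.40 on the day 24 arrays, a range of 0.04, against 4.90 to 6.21 on day 18. The log2 fold change was -2.20 with an SE of 0.48 (adjusted p = 0.0164, limma). PSMB10 was as tight on day 24, at 3.75, 3.71 and 3.73, against 4.85 to 6.01 on day 18, with a log2 fold change of -1.63 (SE 0.40, adjusted p = 0.0257). PSMB8 was at 1.72, 1.86 and 1.14 on day 24. These values lay below all 3 of day 18, and the log2 fold change of -1.66 had an SE of 0.66 and an adjusted p of 0.14. The SE rests on the spread within all 7 groups, and the SD of PSMB8 was 0.85 and 0.38 at attachment sites of days 18 and 24, 1.60 in the non-pregnant group and 1.01 at day 24 inter-sites.

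TAP1 was at -0.80, -0.73 and -0.49 on day 24, below each day 18 array, with a log2 fold change of -1.96 (SE 0.50, adjusted p = 0.0311) and of -2.47 in its other probe (adjusted p = 0.00699). Without replicate 2 of day 18 the lead probe's estimate was -2.70 (adjusted p = 0.00256). PSME1, at 3.52, 3.97 and 4.05, had a log2 fold change of -0.95 with an SE of 0.26 (adjusted p = 0.0408). PSME2, at 4.06, 4.25 and 4.26, had one of -0.88 with an SE of 0.27 (adjusted p = 0.0632). For each of the 6 genes and 13 probes the day 24 arrays all lay below those of day 18, where 13.1% of all probes did.

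With slide as a block, 0 of 6 genes passed here too, at adjusted p of 0.0666 to 0.358. Again the share of all tested probes called in that fit is not given, and the count cannot be read as particular to the 6. The slide that held 1 array of day 24 (replicate 3) and 2 of day 18 (replicates 2 and 3) gave differences of -1.61 for PSMB8, -1.94 for PSMB9, -1.30 for PSMB10, -0.69 for PSME1, -0.56 for PSME2 and -1.40 for TAP1. Calls fell to 0 without replicate 1 of day 18 or replicate 2 or 3 of day 24, to 1 without replicate 3 of day 18 and to 2 without replicate 1 of day 24, and all 6 estimates stayed negative in each of the 21 fits. Of all tested probes, 261 to 2042 were called in either direction over these fits, against 1698 with all arrays.

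**Figure D2:**
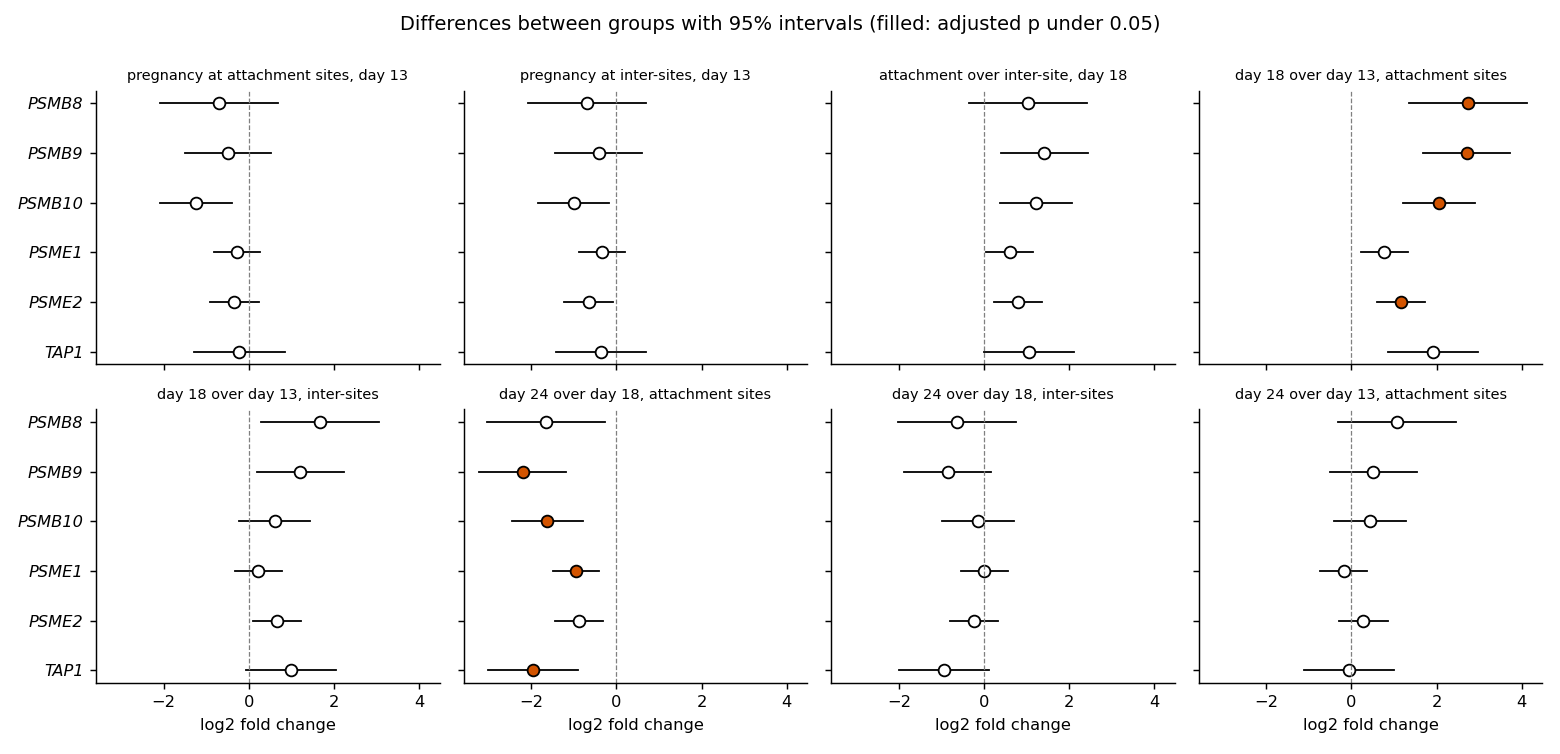
Log2 fold change (points) with its 95% interval (lines) for the lead probe of each gene in 8 comparisons; filled points have a limma adjusted p under 0.05. Filled points appear in the comparison of day 18 with day 13 at attachment sites (4 genes, above 0) and of day 24 with day 18 at attachment sites (4 genes, below 0).

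Day 24 attachment sites were not shown to differ from those of day 13. Of the 6 genes 0 were called, where 15.7% of all tested probes were, and 0 had an unadjusted p under 0.05, where 30.5% of all tested probes did. The intervals still allow sizeable differences: the 95% interval of the log2 fold change ran from -0.31 to 2.46 for PSMB8, from -0.51 to 1.53 for PSMB9, from -0.40 to 1.27 for PSMB10 and from -1.12 to 1.0 for TAP1. For PSMB8 the day 24 arrays lay above all of day 13, as they did for PSMB10 and PSME2 and for 22.2% of all probes, with an estimate of 1.08. For PSME1 and PSME2 the intervals ran from -0.73 to 0.37 and from -0.29 to 0.85. Inter-sites of day 24 against day 13 had 0 of 6 called as well, with estimates of 0.06 to 1.04 and 0.246% of all tested probes called.

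At inter-sites the estimates between day 13 and day 18 were positive for all 6 genes, from 0.22 (PSME1) to 1.67 (PSMB8), but 0 of 6 were called, at adjusted p of 0.864 to 0.936. The background was 0.00665% of all tested probes, and 3 of the 6 genes (PSMB8, PSMB9 and PSME2) had an unadjusted p under 0.05, as did 5.50% of all tested probes. PSMB8 was at 0.40, 0.63 and 0.50 on day 13 and at 1.77, 3.03 and 1.75 on day 18, without overlap. PSMB9 was at 2.72, 3.46 and 2.80 and then at 3.20, 4.95 and 4.47, with overlap. PSME2 was at 3.49, 3.68 and 3.66 on day 13 and at 3.72, 4.81 and 4.28 on day 18, again without overlap, as were 3.69% of all probes in this direction. Replicate 1 of the day 18 inter-sites was the lowest of its group for 5 of the 6 genes.

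From day 18 to day 24 at inter-sites, 0 of 6 genes were called (0.143% of all tested probes were) and 0 had an unadjusted p under 0.05 (14.1% did). Estimates ran from -0.93 (TAP1) to 0.01 (PSME1). Replicate 3 of the day 24 inter-sites, the array that resembled a non-pregnant one, was the highest of its group for all 6 genes, for example at 2.57 for PSMB8 against 1.51 and 0.56. Replicate 3 of the non-pregnant group was likewise the highest of its group for all 6.

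On day 18 the attachment sites had higher means than the inter-sites for all 6 genes, by log2 differences of 0.61 (PSME1) to 1.42 (PSMB9). None passed the test (adjusted p = 0.982 for each, limma), and 0% of all tested probes did in this comparison. At an unadjusted p under 0.05 there were 4 of the 6 (PSMB9, PSMB10, PSME1 and PSME2), against 4.69% of all tested probes. Of the 6, 1 gene (PSME1) was free of overlap, as were 3.91% of all probes in this direction, with 4.52 to 4.97 at attachment sites and 3.93 to 4.36 at inter-sites. The inter-site array of replicate 2, at 3.03 for PSMB8 and 4.90 for PSMB10, was above at least 1 attachment array for both genes. On day 13 and day 24 the sites had 0 of 6 genes called as well, with 0% and 0.279% of all tested probes called, and log2 differences between -0.35 and 0.30.

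Whether the site difference itself changed was tested as a contrast of contrasts. From day 13 to day 18 it grew by estimates of 0.50 (PSME2) to 1.49 (PSMB9), and 0 of 6 passed, at adjusted p of 0.599 to 0.706, where 0% of all tested probes did. From day 18 to day 24 it changed by -1.49 (PSMB10) to -0.66 (PSME2), and 0 of 6 passed again, against 0.00997% of all tested probes. At an unadjusted p under 0.05 there were 2 genes in each, PSMB9 and PSMB10 in the first and PSMB10 and PSME1 in the second, where 7.93% and 3.20% of all tested probes did. The rise and fall at attachment sites was therefore not shown to differ from the course at inter-sites.

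On day 13, pregnancy was not shown to alter these transcripts at either site. All 6 estimates were negative at attachment sites, from -1.24 to -0.22, and at inter-sites, from -1.0 to -0.34. At attachment sites 0 of 6 were called (1.79% of all tested probes were), and at inter-sites 0 of 6 (0.449%). PSMB10 was the lowest estimate at both, at 4.23, 4.48 and 4.88 in non-pregnant sows against 3.07 to 3.67 at attachment sites (log2 fold change -1.24, SE 0.40, adjusted p = 0.0986) and 3.19 to 3.93 at inter-sites (-1.0, SE 0.40, adjusted p = 0.209). PSMB8 in non-pregnant sows was at 0.19, 0.36 and 3.04, with 2 arrays far below the mean of 1.20 and 1 far above it. Without that array, replicate 3, the median over the 6 genes was 0 at attachment sites (3 lower and 3 higher) and -0.09 at inter-sites (4 lower and 2 higher). Negative estimates at inter-sites were not particular to the 6, as the other proteasome genes reported below had them too. With all arrays, the core subunit PSMA5 was at -0.96 (adjusted p = 0.0322, limma) and the alternative activator PSME3 at -1.02 (adjusted p = 0.0255), both called lower.

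Ordered by mean level, the attachment sites of day 18 came first for all 6 genes. The inter-sites of day 18 came second for PSMB8, PSMB9, PSME2 and TAP1, and the non-pregnant group for PSMB10 and PSME1. Last were the day 13 attachment sites for the 3 catalytic subunits, the day 13 inter-sites for PSME2 and TAP1, and the day 24 attachment sites for PSME1. Neighbours in this order overlapped throughout, except that PSME2 at day 13 attachment sites (3.78 to 4.04) lay above day 13 inter-sites (3.49 to 3.68).

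**Figure D3:**
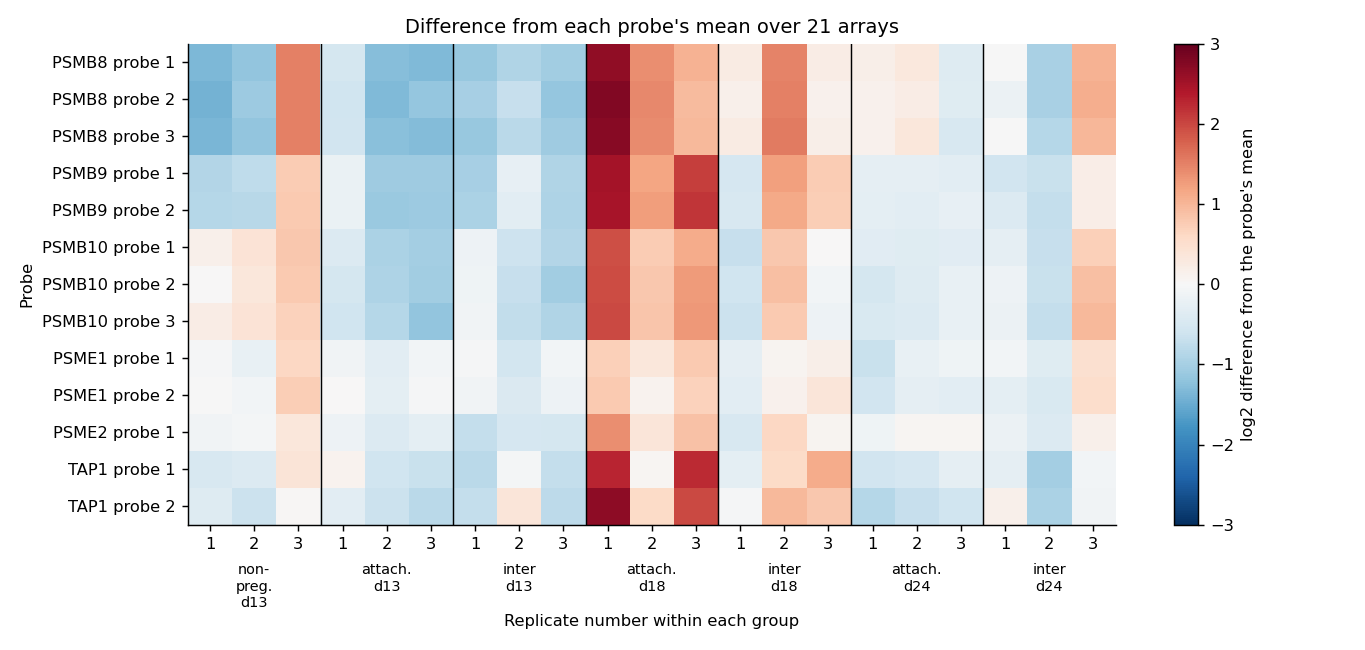
Difference of each of the 13 probes from its own mean over the 21 arrays (log2, colour scale from -3 to 3, red above and blue below), with arrays in columns by group and replicate. Probes of one gene show the same colours across arrays; replicate 1 of the day 18 attachment sites is the reddest column, and replicate 3 of the non-pregnant group and of the day 24 inter-sites are redder than the other arrays of their groups.

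The 6 genes went up and down together from array to array. Averaged over the 6, each centred on its own mean, the 3 day 18 attachment arrays were at 1.91, 0.68 and 1.35 and the day 13 attachment arrays at -0.21, -0.77 and -0.74. Replicate 1 of day 18 attachment was the highest of all 21 arrays for 5 genes, and replicate 3 for PSME1. Pearson's r between pairs of the 6 genes over the 21 arrays ran from 0.703 (PSMB8 and PSME1) to 0.920 (PSMB9 and PSME2). With the group means removed it ran from 0.465 (PSMB8 and TAP1) to 0.876 (PSMB9 and PSME2). These are descriptions of 21 arrays that share slides and scaling and fall in 7 groups.

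The genes most alike in pattern to the mean of the 6, among 2003 other named genes, were SLA-DMA (r = 0.929 over 21 arrays), SLA-DRA (0.921), CD180 (0.918), SLA-DMB (0.918), CD74 (0.916), CD2 (0.914), CASP1 (0.908) and SLA-5 (0.907). The median r over the 2003 genes was -0.066. SLA-DMA, SLA-DMB, SLA-DRA and CD74 act in antigen presentation by MHC class II, CD180 is a B cell and myeloid receptor, CD2 a T and NK cell adhesion molecule, CASP1 an inflammatory protease, and SLA-5 is listed among the class I heavy chains. Gene by gene, IRF1, a transcription factor of the interferon response, was nearest to PSMB9 (r = 0.941) and to TAP1 (0.954). CXCL11, an interferon-induced chemokine, was nearest to PSMB10 (0.918) and PSME1 (0.824), SLA-DRA to PSMB8 (0.915) and the leukocyte integrin subunit ITGAL to PSME2 (0.887).

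Constitutive proteasome genes were tested beside them. For this and the lists below, the shares of all tested probes called at attachment sites are the background. They were 0.990% higher and 0.804% lower from day 13 to 18, and 3.89% higher and 1.75% lower from day 18 to 24. Of the 3 catalytic subunits that the inducible ones replace, PSMB6 and PSMB7 could be named on the array. PSMB6 had means of 3.84 (SD 0.08, n = 3), 4.05 (SD 0.49, n = 3) and 4.48 (SD 0.12, n = 3) at attachment sites of days 13, 18 and 24, and PSMB7 of 4.07, 4.08 and 4.48. Neither passed the test from day 13 to 18 (log2 fold changes 0.20 and 0.01, adjusted p = 0.609 and 0.98) or from day 18 to 24 (0.43 and 0.40, adjusted p = 0.235 and 0.14).

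Within each array, the log2 difference of PSMB9 to PSMB6, centred on its mean over the 21 arrays, was -0.95 to -0.04 on day 13, 0.63 to 2.64 on day 18 and -0.79 to -0.61 on day 24 at attachment sites. Its mean changed by 2.50 and then by -2.63, each with an exact two-sided permutation p of 0.1, the smallest that 3 against 3 arrays allow. For PSMB10 to PSMB7, centred likewise, the range was -0.88 to -0.46, then 0.57 to 2.09, then -0.76 to -0.55, with changes of 2.05 and -2.03 (exact permutation p = 0.1 for each). A changing difference shows that the 2 genes changed unequally, not that either stayed the same.

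Among 3 other core subunits tested (PSMA5, PSMA6 and PSMB3), 0 were called in either comparison, with medians of 0.40 from day 13 to 18 and 0.05 from day 18 to 24. Of PSMD4, PSMC5 and PSME3, parts of the regulatory cap and an alternative activator, 0 were called from day 13 to 18. PSME3, the gamma subunit of the PA28 family, rose from day 18 to 24, when PSME1 fell, with a log2 fold change of 0.69 (SE 0.17, adjusted p = 0.0287).

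Further along the class I pathway, 1 of 5 tested genes of peptide loading and trimming was called from day 13 to 18. B2M, the light chain of class I molecules, was 2.63-fold higher (1.40 on the log2 scale, SE 0.30, adjusted p = 0.0307). CALR, a chaperone of loading, was at 0.78 (adjusted p = 0.106), and HSP90B1 and LNPEP were at 0.46 and 0.40 and not called. By day 24 none of the 5 passed, with B2M at -0.97 (adjusted p = 0.0626). Of 6 class I heavy chains and relatives, SLA-3 rose 4.92-fold from day 13 to 18 (adjusted p = 0.0101), and SLA-5 and SLA-8 had estimates of 3.04-fold and 2.13-fold (adjusted p = 0.0562 and 0.0588). Later, to day 24, SLA-8 fell by 1.10 on the log2 scale (adjusted p = 0.0338), with SLA-5 at -1.32 and SLA-3 at -1.18 (adjusted p = 0.0689 and 0.0543). At inter-sites none of the 6 heavy chains and relatives was called from day 13 to 18, with estimates of -0.06 (FCGRT) to 1.69 (SLA-3). Class I SLA genes can be alike in sequence, and no probe sequences were at hand, so which of them a probe measured is uncertain.

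Upstream, 1 of 17 tested genes of interferon signalling was called higher from day 13 to 18 at attachment sites. IRF1, a transcription factor induced by interferon gamma, was 4.81-fold higher (2.26 on the log2 scale, SE 0.54, adjusted p = 0.0428). IRF7 was at 1.57 (adjusted p = 0.0598). The receptor subunits IFNGR1 and IFNGR2 were at 0.28 and 0.56 and JAK1 at 0.10, none called. Towards day 24, IRF1 fell 5.08-fold (adjusted p = 0.0197), STAT2 2.45-fold (adjusted p = 0.0233) and IL15 2.7-fold (adjusted p = 0.0453), and SOCS3, an inhibitor of cytokine signalling, rose 3.76-fold (adjusted p = 0.0174).

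IFNG itself had means of -3.51 (SD 2.28), 0.28 (SD 1.73) and -2.63 (SD 0.71) at attachment sites of days 13, 18 and 24 (n = 3 each), and of -3.94 (SD 0.55, n = 3) at day 18 inter-sites. It was well above background on 2 of 3 arrays on day 13 and on 3 of 3 on the later days. The log2 estimates of 3.79 and -2.92 did not pass the test (adjusted p = 0.0735 and 0.117). The array with the highest IFNG level of day 18, 2.26, was replicate 2, which had the lowest level of its group for 5 of the 6 genes. IFNB1 and IFNA1 were not well above background on any day 13, 18 or 24 attachment array.

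Of 21 other interferon-induced genes, 7 were called higher from day 13 to 18 at attachment sites and 0 lower, with a median log2 fold change of 1.47. The called ones were the chemokines CXCL9 (28.4-fold), CXCL10 (22.2-fold) and CXCL11, the GTPases GBP1 (13.3-fold) and GBP2 (7.23-fold), the ubiquitin-like UBD (6.77-fold) and the antiviral MX2 (5.84-fold), at adjusted p of 0.0195 (CXCL11) to 0.0475 (CXCL9). CXCL11 was not well above background on any day 13 attachment array and was at least 19.4-fold higher on day 18, with the dim group set at the higher of its own value and the lowest signal above background on each array. Then, to day 24, 6 of the 21 fell and 0 rose: CXCL10 (40.6-fold), CXCL9 (26.6-fold), GBP1 (21-fold), GBP2 (15.8-fold), UBD (10.2-fold) and CXCL11 (at least 14.3-fold), at adjusted p of 0.00272 to 0.0286. MX2 and ISG15 were both at -0.05 (adjusted p = 0.976 and 0.972) and MX1 at -0.13 (adjusted p = 0.927). At inter-sites none of the 21 was called from day 13 to 18, where 0.00665% of all tested probes were. Their estimates there were all positive, from 0.25 (OASL) to 2.68 (ISG15). For ISG15 the estimate at attachment sites was 2.34. CXCL9 was at 0.52 at inter-sites and 4.83 at attachment sites.

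**Figure D4:**
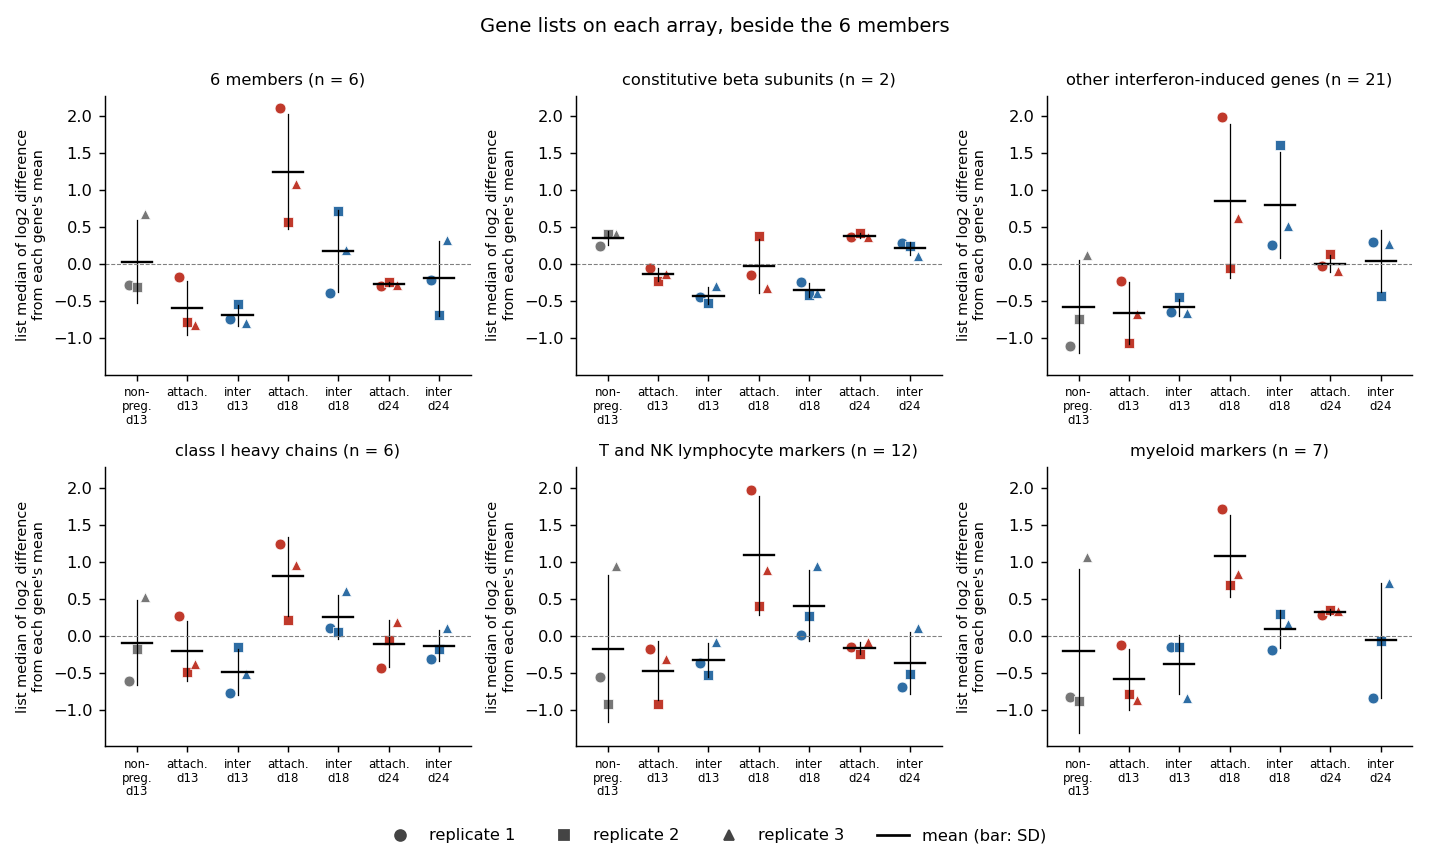
Median over each gene list of the log2 difference of each gene's lead probe from its own mean over 21 arrays, per array and group; symbols are replicates, horizontal lines means and bars SD (n = 3). The 6 genes, the interferon-induced genes, the class I heavy chains and the T, NK and myeloid markers have their highest group mean at day 18 attachment sites, where replicate 1 is at 2.11, 1.99, 1.24, 1.97 and 1.72; the 2 constitutive subunits have their highest at day 24 attachment sites.

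Some leukocyte markers passed the test in the same comparisons as the 6 genes, and their part in the result was not tested. Of 12 tested markers of T and NK lymphocytes, CD2 (6.93-fold) and CD3D (4.13-fold) were called higher from day 13 to 18 at attachment sites, 9 estimates were positive and 3 negative (GZMB at -0.17, CD247 at -0.16 and GZMH at -0.10). The summed level of the 13 on the array, in multiples of the 75th percentile, ran from 8.76 to 10 on day 13, from 8.12 to 17.1 on day 18 and from 4.93 to 5.62 on day 24. Between days 18 and 24, GZMA (4.19-fold) and GZMB (3.18-fold), both granule proteases, were called lower; GZMA was well above background on 2 of 3 arrays on day 24 and on 3 of 3 on day 18. CD3D, a defining T cell marker, was well above background on 2 of 3 arrays on day 13, 3 of 3 on day 18 and 2 of 3 on day 24.

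Of 7 tested myeloid markers, LYZ (10.4-fold) and CD180 (5.93-fold) were called higher from day 13 to 18. AIF1, TYROBP and CD86 also had positive estimates, at 2.51, 1.81 and 1.33 (adjusted p = 0.0654, 0.103 and 0.133, limma). The macrophage receptor CD163 was at -2.02 (adjusted p = 0.0605) and CD14 at -0.43 (adjusted p = 0.612). The summed level of the 7 ran from 14 to 24.6, then 42.6 to 87.8, then 36.8 to 38.1. CD180 then fell 5.32-fold and CD163 rose 5.59-fold by day 24. No B cell marker passed the filter on dim probes.

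Some markers of other cell types passed the test between these groups, and their part in the result was not tested. All 7 epithelial markers had negative estimates from day 13 to 18, with a median of -1.17 and 0 called, and a summed level of 191 to 229, then 71.3 to 140, then 162 to 190. CDH1 among them was called higher from day 18 to 24 (3.40-fold). The summed smooth muscle markers ranged from 82.7 to 1590 among the day 18 attachment arrays, with 0 of 4 genes called. Of 12 trophoblast markers, which include IFNG from the signalling list, 0 were called from day 13 to 18. PAG6 had the largest estimate, 4.86 (SE 2.09, adjusted p = 0.192, limma). Its means at attachment sites were -1.73, 3.12 and 7.47 on days 13, 18 and 24. The negative estimates were those of TTR (-1.46) and GATA2 (-0.12). Summed levels of the list were 12.5 to 16 on day 13 and 18.4 to 69.7 on day 18. On day 24 the sum was 101 to 338, when AFP, GATA3 and CYP19A3 were called higher than on day 18 and 4 of the 6 genes were called lower.

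**Figure D5:**
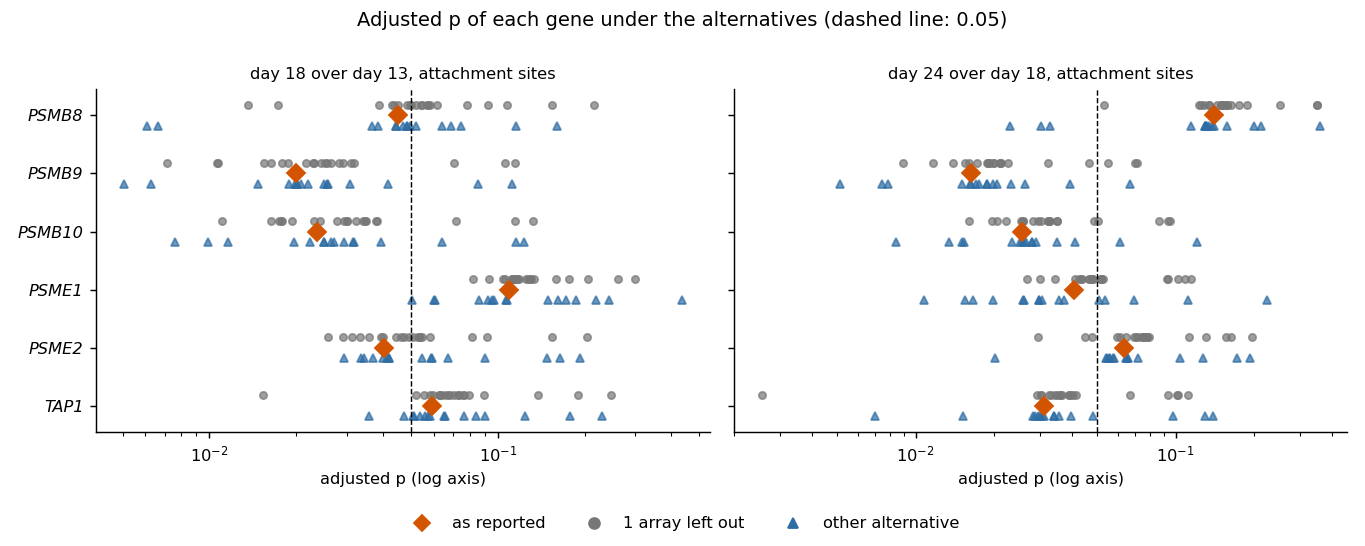
Adjusted p (log axis) of each gene's lead probe in both attachment-site comparisons between days, as reported (diamond), with 1 of the 21 arrays left out (circles) and under the other 16 alternatives (triangles); the dashed line is 0.05. PSMB9 lies left of the line in 18 of 21 fits with an array left out in each comparison, and PSME1 in 0 of 21 from day 13 to 18 and 12 of 21 from day 18 to 24.

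How far the calls held differed between the 6 genes. From day 13 to 18 at attachment sites, PSMB9 passed in 18 of 21 fits without 1 array and in 14 of 16 other settings, PSMB10 in 18 and 13, PSME2 in 11 and 8, PSMB8 in 8 and 10, TAP1 in 1 and 2, and PSME1 in 0 and 0. From day 18 to 24 PSMB9 passed in 18 and 15, PSMB10 in 17 and 14, TAP1 in 16 and 13, PSME1 in 12 and 11, PSME2 in 3 and 1 and PSMB8 in 0 and 3. The log2 fold change of PSMB9 stayed between 2.42 and 3.07 without any one array in the first comparison and between -2.57 and -1.91 in the second. That of TAP1 ranged more widely, from 1.53 to 2.64 in the first, where it was 2.64 with an adjusted p of 0.0154 when replicate 2 of day 18 was left out, and from -2.70 to -1.58 in the second.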

How the data were processed

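RNA from 21 endometrium samples was hybridised to Agilent 1-colour porcine arrays after Cy3 labelling of Trizol-extracted RNA, per the labels' protocols. Spot intensity in the deposited files came from Agilent Feature Extraction (10.7.3.1 per the file headers, 10.7 per the submitters' processing notes), which had subtracted background from the processed intensity per the file headers. Other deposited columns used were 0 or 1 flags for background, saturation and outliers. The authors' deposited table holds log2 values with a median of 5.852 in every column, with its software not given in the sources used here. Its columns for replicates 2 and 3 of the day 24 inter-sites follow each other's scanner files, so it served as an alternative.

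Control and outlier spots were left out and repeated spots averaged. The log2 processed intensity minus each array's 75th percentile was modelled by its 7 group means with lmFit and eBayes of limma 3.58.1 under R 4.3.3, with 14 residual and 2.71 prior degrees of freedom. Benjamini-Hochberg adjustment ran over the 30091 probes that had all 3 arrays of some group well above background, and 13512 were left out. Of 5779 probes with a RefSeq accession, 5461 matched 1 pig gene symbol, 0 several and 318 none. A gene is called when its lead probe has an adjusted p under 0.05. The fit was tested on simulated data with independent normal noise. Those data held no slide effect and no matching libraries, so the test does not bear on either. The number of arrays limits the precision.

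The 6 genes, the lists and the markers were chosen with earlier results of these data known. Of the listed genes, 2 are not reported here and were left out of the counts of their lists. Named genes are the 6, the called or most changed genes of each list, the 8 other genes most alike to the mean of the 6, and the genes most alike to each. Other genes named were chosen after their values were seen: DKK1, the receptor subunits and JAK1, the interferon genes and MX1 and ISG15. So were OASL, FCGRT, GATA2, TYROBP, CD86 and CD14. The numbers in the labels were not shown to pair the samples: of 33 same-number pairs across compared groups, 12 had deviations correlated over 0.1, and in 0 comparisons did every pair. The labels do not say which sites share a sow. The planned normexp correction on mean signal was run on the median signal. Alternatives were other scalings, background correction, filters, the authors' values, blocks for slide, replicate number and matching libraries, and leaving out arrays. The block for matching libraries and 2 of the settings that leave out libraries were chosen after seeing the data.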

Additional observations from a re-analysis of the deposited data

How the results depend on the processing

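For the 2 attachment-site comparisons between days, all 6 estimates kept their direction under each alternative run. From day 13 to 18, the count of genes called (4 of 6) was 2 with normexp background correction, 2 with median scaling, 2 with no filter on dim probes, 0 with only the groups of the comparison in the fit, 0 with slide as a block, and 1 with libraries that matched at on-off probes as a random block, an alternative chosen after seeing the data. With 1 array left out it ran from 0 to 4, while 9 to 3733 of all tested probes were called. From day 18 to 24, the count (4 of 6) was 1 with only the groups of the comparison, 0 with slide as a block, and 0 to 5 with 1 array left out. With slide as a random block it stayed at 4 in both, at an estimated correlation of -0.056. With only the groups of the comparison, 1 gene (PSMB8) was called between day 13 and day 24 at attachment sites. Without both libraries of pregnant sows with low DKK1, 1 gene (PSMB10, adjusted p = 0.0487 by limma) was called lower in pregnancy at attachment sites on day 13. Leaving out the non-pregnant and the day 24 inter-site library that correlated most gave 4 and 5 calls in the 2 attachment-site comparisons, and leaving out also replicate 1 of the day 13 inter-sites gave 5 and 5. With the replicate block the counts were 4 and 4, and no count of another comparison changed from 0; the numbers share only a label. Normexp correction moved the median of all probes from day 18 to 24 at attachment sites to 0.258. Adjustment ran over all tested probes, so each count also depended on how many other probes passed in that setting. Except for the fits without 1 array, the share of all tested probes called is not given for these settings. A changed count can therefore not be read as particular to the 6 genes. The cause of these differences was not tested.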
